A study of Mus musculus with 15 samples.

Results

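Collagens are the triple-helical proteins of the extracellular matrix, and their genes are named Col, a type number, the letter a and a chain number. All genes on the arrays whose symbol has that form were taken, which gave 44 collagen genes of 19532 genes, read by 89 of 41174 mouse probes. All 44 collagen genes of the RefSeq annotation GRCm38.p6 were among them. They were split into 11 genes of fibrillar collagens (types I, II, III, V, XI, XXIV and XXVII), 6 genes of the basement membrane collagen type IV, and 27 genes of other types. Fibrillar collagens build the cross-striated cables that carry tension in the heart wall, and fibroblasts make most of them. Type IV collagen forms the sheet-like network of the basement membranes that wrap each heart muscle cell and capillary. The other types decorate fibrils, link fibrils to basement membranes, form filaments around cells or span cell membranes.

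The hearts came from Acsl1H-/- mice, in which tamoxifen removes Acsl1, an enzyme that couples long-chain fatty acids to coenzyme A before they are burned, and from littermate Acsl1flox/flox controls. Per the labels the males were 6 to 8 weeks old at injection, the strain was C57Bl/J6, and all groups, controls included, received tamoxifen in corn oil at 75 mg/kg on 4 days. Ventricles were taken 2 weeks later from 4 controls and 3 knockouts, and 10 weeks later from 4 controls and 4 knockouts. No group carried the recombinase without the deletion, the promoter that drives the recombinase is not named in the labels, and the loss of Acsl1 was not checked, since that gene was not analysed here. Each heart RNA (Cy-5) was hybridised to a 2-colour Agilent array against 1 reference RNA (Cy-3) from whole neonatal mice of mixed 129Sv and C57BL/6 background.

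The values are log ratios, taken as log2 of heart over reference, and each probe had been centred on its median over the 15 arrays. A value of 0 is therefore the middle array of that probe, not absence, and levels of different collagens cannot be compared. The direction of the ratio follows the dyes and is likely rather than stated. With the opposite sign every "above" below would read "below". A gene is the mean of its probes, differences are knockout minus control in log2 with the standard error (SE) of limma, and a gene was called at a limma p, adjusted over all 19532 genes, under 0.05. The labels call the samples biological replicates. In RNA of whole ventricles, more cells that make a collagen and more RNA per cell cannot be told apart.

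The array of knockout replicate 3 at 2 weeks stood apart in the collagen genes. It was the highest of the 15 arrays for 19 of the 44 collagens (43.2%), against 8.34% of all genes. The next arrays in this count, control replicate 3 and knockout replicate 2 at 2 weeks, were each highest for 4 collagens. The main results at 2 weeks are therefore given with and without knockout replicate 3. This array was picked by its high collagen values. Smaller collagen differences without it follow in part from that choice and are not a test. With knockout replicate 1 left out instead, the median collagen difference at 2 weeks was 0.21, in place of 0.09 with all arrays. Control replicate 1 at 2 weeks differed in another way: the mean of 4 atrial markers read 3.20 there and between -0.75 and 1.16 on all other arrays.

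At 2 weeks no collagen gene was called between knockout and control hearts. In the same limma fit 0.00512% of all genes (1 gene) was called, so the background rate was itself near 0. By their fitted differences 27 of the 44 collagens lay above 0, against 46.3% of all genes, and the median collagen difference was 0.09 against -0.02 over all genes. At an unadjusted p under 0.05 there were 8 collagens, or 18.2%, against 7.25% of all genes. Of these, 6 lay higher in knockouts (Col8a1, Col3a1, Col8a2, Col6a2, Col15a1 and Col14a1) and 2 lay lower (Col9a3 and Col22a1). The smallest adjusted p of a collagen was 0.344. Without knockout replicate 3 only 1 of the 44 had an unadjusted p under 0.05 (6.61% of all genes), 21 lay above 0, and the median was -0.01. The count also moved without control replicate 3 (4 collagens, against 6.31% of all genes) and without control replicate 4 (2 collagens, against 7.03%). It was 12 without control replicate 1 (against 7.74%) and 12 without knockout replicate 1 (against 7.15%).

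**Figure D1:**
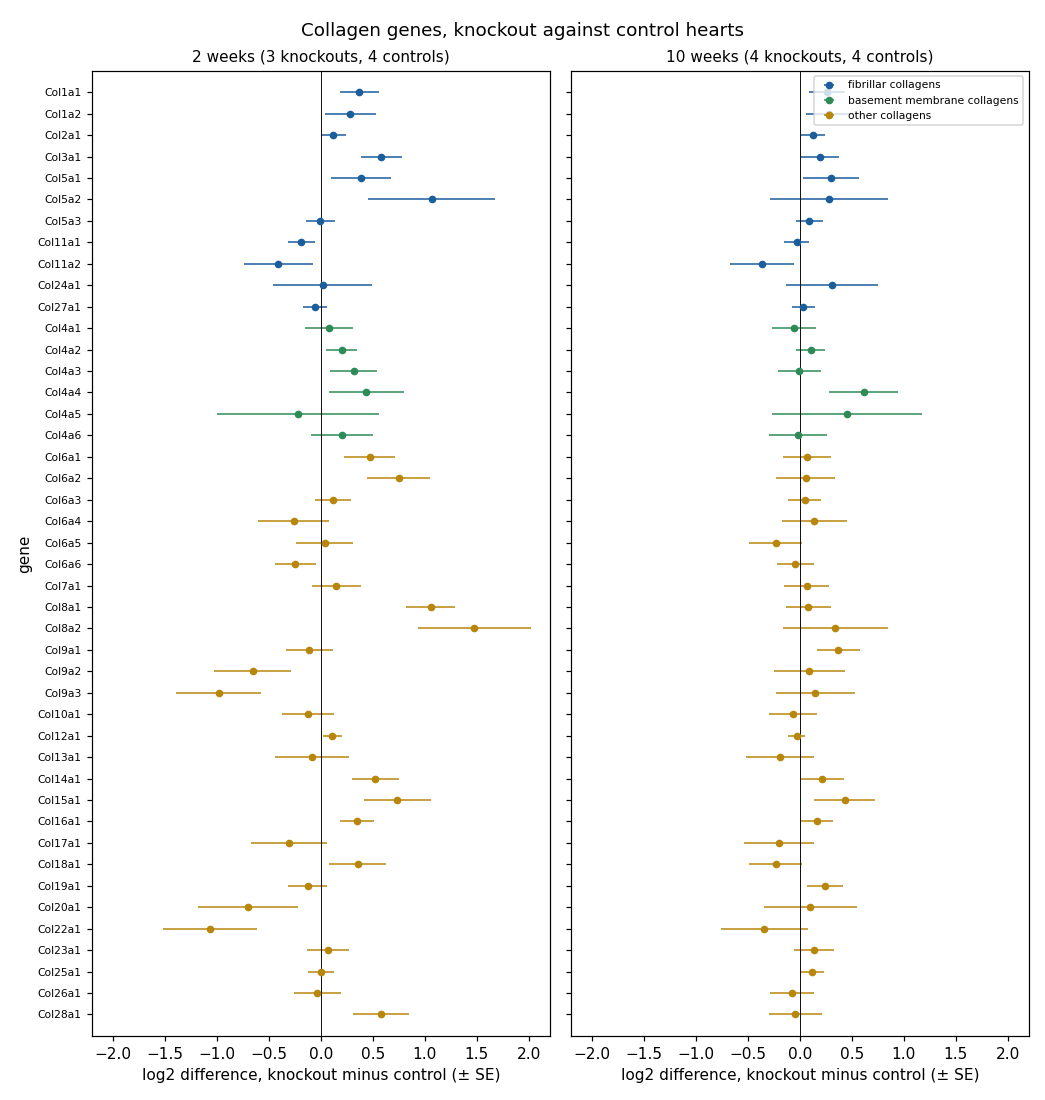
Differences between knockout and control hearts (log2, x axis) for each of the 44 collagen genes (y axis), at 2 weeks (left) and 10 weeks (right). Points are fitted differences, bars are ± SE and colours give the class. At 2 weeks Col8a2 (1.48), Col5a2 (1.06) and Col8a1 (1.05) lie farthest to the right, and at 10 weeks the highest point is Col4a4 at 0.61.

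Type VIII collagen, a short-chain collagen that forms hexagonal networks in vessel walls, held both the largest difference of a collagen gene at 2 weeks (Col8a2) and the smallest p (Col8a1). Col8a1 read 0.36, 0.69 and 1.25 in the 3 knockouts (replicates 1 to 3) and 0.02, -0.51, -0.14 and -0.51 in the 4 controls. It was the 1 collagen gene of which all knockouts lay above all controls at 2 weeks, against 4.26% of all genes. Its difference was 1.05 ± 0.23 (limma, adjusted p = 0.344). Without knockout replicate 3 the difference was 0.81 (limma, adjusted p = 0.526). Col8a2, the second chain of type VIII, read 1.37, 0.62 and 3.28 in knockouts and 1.02, -0.05, 0.73 and -0.56 in controls. The groups overlapped, and replicate 3 was far above every other heart. The Col8a2 difference of 1.48 ± 0.55 (limma, adjusted p = 0.623) became 0.71 without that array.

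The gene mean of Col8a1 joined probes that differed. The RefSeq probes A_52_P282058 and A_52_P292792 gave differences of 1.33 ± 0.31 and 1.93 ± 0.44, and with each of them all knockouts lay above all controls. The third probe, A_52_P184855, annotated to a cDNA clone, gave -0.10 ± 0.24. On A_52_P292792 the knockouts read 0.63, 1.27 and 1.98 and the controls 0.10, -1.63, -0.15 and -0.87. Neither of the higher probes was called by limma over all probes (adjusted p = 0.369 and 0.341).

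The promoter of Col8a1 is shown because this gene had the smallest p of all collagens at 2 weeks, so it was chosen after its values were seen. The window runs from 250 bases before to 50 bases after the RefSeq start on build GRCm38.p6, chr16:57754688-57754987, minus strand. Capitals mark matches to the GC box GGGCGG on either strand, of which there are 4, and the CCAAT box has 0 matches.
Col8a1: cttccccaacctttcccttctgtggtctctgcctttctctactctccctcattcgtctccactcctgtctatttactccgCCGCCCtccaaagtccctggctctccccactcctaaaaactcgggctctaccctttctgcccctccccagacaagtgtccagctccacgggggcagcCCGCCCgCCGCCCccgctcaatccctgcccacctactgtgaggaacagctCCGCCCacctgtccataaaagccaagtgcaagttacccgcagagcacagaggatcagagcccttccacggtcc
Over all 32851 RefSeq promoter windows of this length, 35.7% hold GGGCGG and 37.4% hold CCAAT. Of 38 windows of 35 collagen genes, 23 hold GGGCGG and 13 hold CCAAT. These are matches of letters, not measured sites.

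Among the fibrillar collagens at 2 weeks, 7 of 11 lay above 0 with a median of 0.12, and none was called. Col3a1, the chain of type III collagen, the compliant partner of type I in the heart, read 0.02, 0.53 and 1.11 in knockouts and -0.02, 0.08, 0.05 and -0.22 in controls. The lowest knockout lay inside the control range, and the other two lay above it. The difference was 0.58 ± 0.20 (limma, adjusted p = 0.584) and 0.30 without replicate 3. Without knockout replicate 1 it was 0.85 (limma, adjusted p = 0.139). Col1a1, which encodes the alpha 1 chain of type I collagen, the main fibril collagen of the heart, read 0.18, 0.12 and 0.84 in knockouts and 0.30, 0.12, -0.03 and -0.34 in controls. Its difference was 0.37 ± 0.19 (limma, adjusted p = 0.725), and 0.14 without replicate 3. Col1a2, the alpha 2 chain, read -0.11, 0.84 and 0.71 in knockouts and 0.21, -0.02, -0.05 and 0.64 in controls. The groups of both type I genes overlapped, and the Col1a2 difference was 0.28 ± 0.25, or 0.17 without replicate 3. Col5a1, a chain of the type V collagen that starts fibrils, read 0.05, -0.33 and 0.79 in knockouts and -0.01, 0.13, -0.47 and -0.50 in controls, a difference of 0.38 ± 0.29 that became 0.07 without replicate 3. The highest of the fibrillar differences was that of Col5a2, also of type V, at 1.06 ± 0.61 (limma, adjusted p = 0.763), or 0.65 without replicate 3. Col2a1, Col11a1 and Col11a2, known from cartilage, had differences of 0.12, -0.19 and -0.41. Without replicate 3 the fibrillar median was 0.07, again with 7 of 11 genes above 0.

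**Figure D2:**
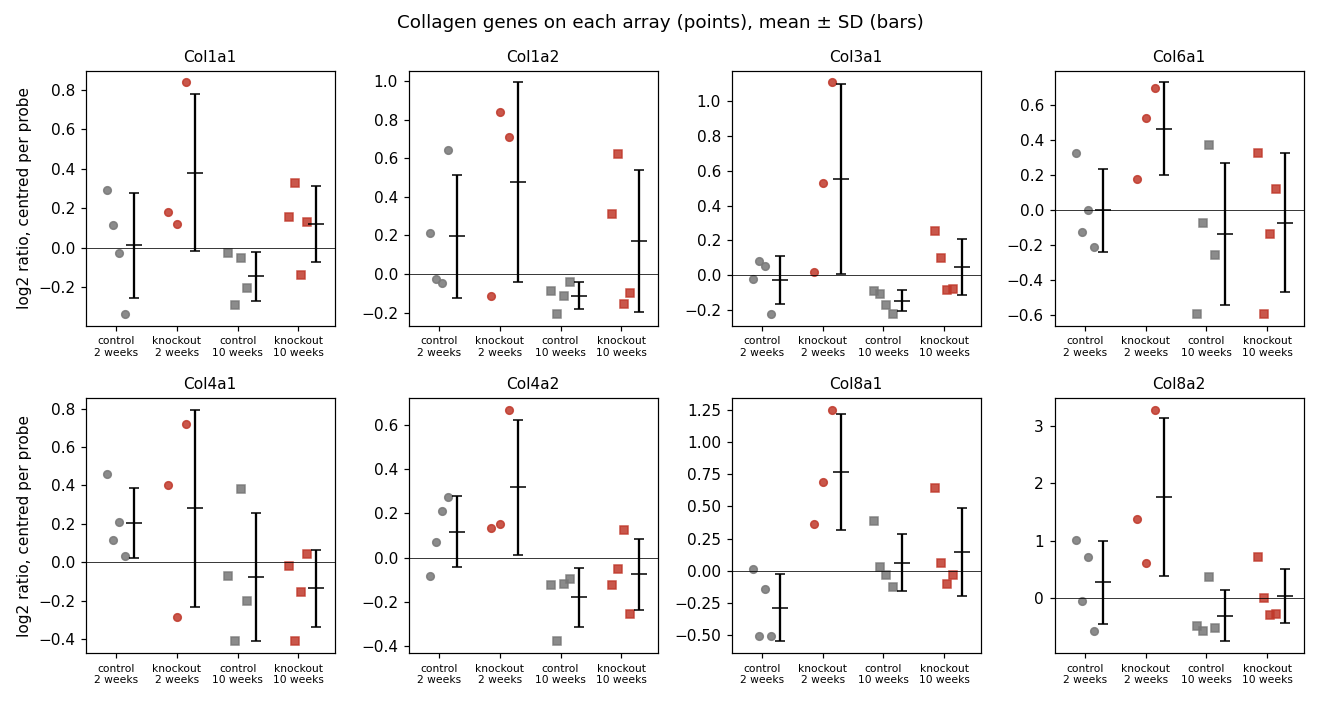
Values of 8 collagen genes on each of the 15 arrays (log2 ratio centred per probe, y axis) in the 4 groups (x axis). Points are arrays, horizontal marks with bars are group means ± SD, and each panel has its own scale. The highest 2-week knockout point is replicate 3 in every panel except that of Col1a2, where replicate 2 reads 0.84 and replicate 3 reads 0.71.

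Of the 6 type IV genes 5 lay above 0 at 2 weeks, with a median of 0.20 and 0 genes at an unadjusted p under 0.05. Col4a1 and Col4a2 encode the 2 chains of the most widespread type IV molecule. Col4a2 read 0.13, 0.15 and 0.67 in knockouts and -0.08, 0.07, 0.21 and 0.27 in controls. Col4a1 read 0.40, -0.28 and 0.72 in knockouts and 0.46, 0.12, 0.21 and 0.04 in controls. For both genes the groups overlapped, and the differences were 0.20 ± 0.15 and 0.08 ± 0.23. Without replicate 3 they were 0.02 and -0.14. Col4a1 also changed sign with the choice of probe: its RefSeq probes gave 0.38 and 0.33, and its cDNA clone probe gave -0.48. Col4a4, a chain of the specialised type IV network best known from the kidney filter, read -0.35, -0.05 and 0.52 in knockouts and 0.06, 0.22, -1.18 and -0.68 in controls. The groups overlapped, and the difference was 0.44 ± 0.36, or 0.20 without replicate 3. Without that array 3 of the 6 type IV genes lay above 0, and their median was 0.01.

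Col4a1 and Col4a2 lie head to head, and their promoter windows on build GRCm38.p6 (chr8:11312777-11313076, minus strand, for Col4a1 and chr8:11312555-11312854, plus strand, for Col4a2) share 78 bases. They are shown because the genes start beside each other on opposite strands, so that their windows overlap. Capitals mark CCAAT and GGGCGG on either strand, with 1 CCAAT in each window, 1 GGGCGG in that of Col4a1 and 3 in that of Col4a2. The GGGCGG of the Col4a1 window lies in the shared bases and is also 1 of the 3 of Col4a2. The annotated 5' ends of the genes overlap, so each window also holds transcribed bases of the other gene.
Col4a1: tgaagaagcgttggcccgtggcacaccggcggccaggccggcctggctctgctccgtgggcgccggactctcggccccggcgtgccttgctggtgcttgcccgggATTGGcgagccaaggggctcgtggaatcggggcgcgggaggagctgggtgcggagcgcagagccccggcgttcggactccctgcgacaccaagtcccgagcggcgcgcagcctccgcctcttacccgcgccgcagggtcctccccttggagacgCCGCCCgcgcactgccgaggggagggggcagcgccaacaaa
Col4a2: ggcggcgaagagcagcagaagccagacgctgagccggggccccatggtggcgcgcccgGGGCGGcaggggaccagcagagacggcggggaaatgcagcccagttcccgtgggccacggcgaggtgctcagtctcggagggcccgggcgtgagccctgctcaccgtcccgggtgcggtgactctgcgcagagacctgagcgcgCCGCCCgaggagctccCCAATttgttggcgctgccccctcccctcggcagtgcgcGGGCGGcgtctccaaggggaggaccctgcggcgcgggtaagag
No factor was measured at these windows.

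The 27 other collagens had the widest range of differences at 2 weeks. They ran from -1.07 to 1.48 with a median of 0.04, and 15 lay above 0. The median was -0.09, with 11 above 0, when knockout replicate 3 was left out. In type VI collagen, which forms beaded filaments around cells, Col6a1 read 0.18, 0.52 and 0.70 in knockouts and 0.33, -0.12, 0.00 and -0.21 in controls. Col6a2 read 0.05, 0.24 and 0.95 in knockouts and 0.40, -0.79, -0.47 and -0.47 in controls. In both genes the highest control, replicate 1, lay inside the knockout range. The differences were 0.47 ± 0.25 and 0.75 ± 0.30 (limma, adjusted p = 0.646 for Col6a2), and 0.35 and 0.48 without replicate 3.

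Col15a1 encodes the core of a proteoglycan at the outer face of muscle and capillary basement membranes. It read 0.18, 0.90 and 1.85 in knockouts and 0.85, -0.02, -0.07 and 0.20 in controls, a difference of 0.74 ± 0.32 (limma, adjusted p = 0.659). Col14a1, a fibril-associated collagen, read 0.38, 0.89 and 0.90 in knockouts and 0.64, 0.33, -0.13 and -0.05 in controls, a difference of 0.52 ± 0.23. In Col14a1 only control replicate 1 reached into the knockout range, and in Col15a1 control replicates 1 and 4 did. The differences were 0.30 for Col15a1 and 0.43 for Col14a1 without knockout replicate 3.

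Lower values in knockouts at 2 weeks were found for Col22a1 and Col9a3. Col22a1, a collagen of tissue junctions known from the muscle-tendon junction, read -0.71, -0.67 and -0.44 in knockouts and -0.54, 0.90, 0.32 and 1.16 in controls. Only control replicate 1 lay within the knockout range, and the difference was -1.07 ± 0.45 (limma, adjusted p = 0.651). Col9a3, a chain of a fibril-associated collagen of cartilage, read 0.04, -0.16 and -0.06 in knockouts and -0.17, 0.14, 1.86 and 1.86 in controls. Its difference of -0.98 ± 0.41 (limma, adjusted p = 0.646) came with 2 controls that stood far above all other hearts. The difference of Col22a1 was -1.15, and that of Col9a3 -0.98, without knockout replicate 3. Col9a1, another chain of that cartilage collagen, read -0.10, -0.21 and -0.01 in knockouts and -0.17, -0.01, 0.19 and 0.02 in controls. Col19a1, a rare basement membrane zone collagen, read -0.01, 0.02 and -0.07 in knockouts and -0.08, 0.01, 0.58 and -0.08 in controls. The groups of both genes overlapped. All knockouts lay below all controls for 1 collagen, Col17a1, a transmembrane collagen of epithelial attachment, with a difference of -0.31; 4.52% of all genes had that order.

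The genes of a class were averaged on each array. Fibrillar collagens averaged 0.20 ± 0.28 in knockouts (SD, n = 3) and 0.01 ± 0.25 in controls (SD, n = 4) at 2 weeks. Type IV genes averaged 0.19 ± 0.35 against 0.02 ± 0.32, and the other collagens 0.20 ± 0.23 against 0.13 ± 0.08. The 3 differences of 0.20, 0.17 and 0.08 were each smaller than the SD of the knockouts. Without knockout replicate 3 they were 0.05, 0.01 and -0.05, and without knockout replicate 1 they were 0.34, 0.35 and 0.18. Without control replicate 4 the fibrillar difference was 0.08 and that of type IV 0.27. The type IV difference was also 0.03 without control replicate 3 and 0.24 without control replicate 1. The class means of the knockouts ordered the arrays alike: replicate 1 was lowest and replicate 3 highest in all 3 classes. The classes were not tested against each other.

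**Figure D3:**
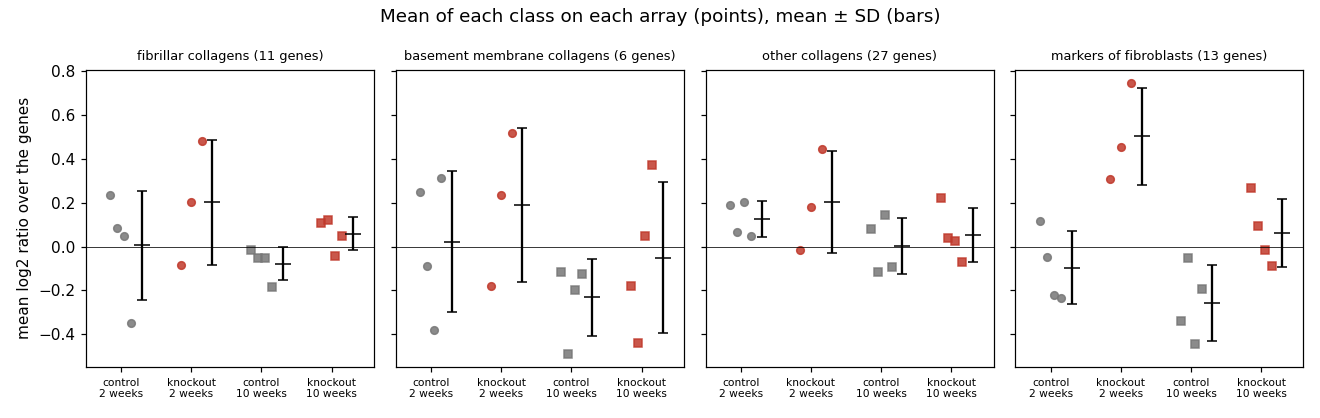
Mean log2 ratio over the genes of each collagen class and over 13 fibroblast markers (y axis) on each array in the 4 groups (x axis). Points are arrays and bars are group means ± SD. Collagen classes overlap between knockouts and controls at 2 weeks, and the fibroblast markers do not (0.31 to 0.74 in knockouts, -0.23 to 0.12 in controls).

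At 10 weeks no collagen gene was called either, while 0.686% of all genes (134 genes) were. No collagen had an unadjusted p under 0.05, against 9.96% of all genes. Of the 44 collagens 29 lay above 0, against 46.5% of all genes, and the median difference was 0.09 against -0.02. The differences ran from -0.37 to 0.61. Fibrillar genes lay above 0 in 9 of 11 cases (median 0.20), type IV genes in 3 of 6 (median 0.05) and other collagens in 17 of 27 (median 0.07).

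All 10-week knockouts lay above all 10-week controls for 2 collagens, Col3a1 and Col15a1, against 3.24% of all genes. The count was 1 with the median of the probes of a gene and also with the most variable probe. The share of all genes is not given for these 2 settings. Col3a1 read 0.25, 0.10, -0.08 and -0.08 in knockouts and -0.09, -0.11, -0.17 and -0.22 in controls. The 2 groups touched without overlap, and the difference was 0.20 ± 0.18 (limma, adjusted p = 0.815). The single probes of Col3a1 gave differences from -0.08 to 0.43. Col15a1 read 0.27, 0.67, 0.07 and 0.06 in knockouts and -0.07, -0.11, -0.20 and -0.27 in controls, a difference of 0.43 ± 0.30 (limma, adjusted p = 0.724). No collagen had all knockouts below all controls, against 3.36% of all genes. Without knockout replicate 3 at 10 weeks, 5 collagens (11.4%) had all knockouts above, against 4.69% of all genes, and 2 had an unadjusted p under 0.05, against 10.03% of all genes. Without knockout replicate 4 the counts were 4 (9.09%, against 4.62%) and 1 (against 9.61% of all genes).

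Type I collagen overlapped at 10 weeks. Col1a1 read 0.16, 0.33, -0.14 and 0.13 in knockouts and -0.03, -0.29, -0.05 and -0.21 in controls, so 3 of 4 knockouts lay above every control. The difference was 0.26 ± 0.17 (limma, adjusted p = 0.706). Col1a2 read 0.31, 0.62, -0.15 and -0.10 in knockouts and -0.09, -0.21, -0.11 and -0.04 in controls, with 2 knockouts above and 2 among the controls, and a difference of 0.28 ± 0.23. Col5a1 read 0.38, 0.63, -0.53 and 0.24 in knockouts and -0.00, -0.10, -0.32 and -0.05 in controls. Here 3 knockouts lay above and 1 below all controls, and the difference was 0.30 ± 0.27.

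The collagen with the smallest p at 10 weeks was Col4a4. It read 0.33, -0.66, 0.32 and 0.45 in knockouts and -0.52, -0.29, -0.26 and -0.95 in controls, so that 3 knockouts lay above all controls and 1 lay below 3 of them. Its difference was 0.61 ± 0.33 (limma, adjusted p = 0.605). Col9a1 read 0.41, 1.14, 0.06 and 0.00 in knockouts and 0.09, -0.22, 0.28 and -0.03 in controls, a difference of 0.37 ± 0.21 with overlap. Col19a1 read 0.59, 0.55, 0.02 and -0.09 in knockouts and -0.01, -0.02, 0.06 and 0.07 in controls, a difference of 0.24 ± 0.18. That value rests on 1 of its 4 probes, A_51_P146726, at 1.02 ± 0.63, while the others gave -0.07 to 0.06 and the median of the probes gave 0.01.

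For the other collagens followed at 2 weeks the groups overlapped at 10 weeks. Col8a1 read 0.65, 0.06, -0.10 and -0.03 in knockouts and 0.39, 0.03, -0.03 and -0.12 in controls, a difference of 0.08 ± 0.22. Col8a2 read 0.72, 0.00, -0.29 and -0.27 in knockouts and -0.49, -0.57, 0.37 and -0.52 in controls, a difference of 0.34 ± 0.51. In both type VIII genes knockout replicate 1 was the highest of the 10-week hearts and the groups overlapped. Col4a1 read -0.02, -0.41, -0.15 and 0.04 in knockouts and -0.07, -0.41, 0.38 and -0.20 in controls, a difference of -0.06 ± 0.22. Col4a2 read -0.12, -0.05, 0.13 and -0.25 in knockouts and -0.13, -0.38, -0.12 and -0.10 in controls, a difference of 0.10 ± 0.14. Both type IV chains overlapped between genotypes. Col6a1 read 0.32, -0.59, -0.14 and 0.12 in knockouts and -0.60, -0.08, 0.37 and -0.26 in controls, a difference of 0.07 ± 0.23. Col6a2 read -0.03, 0.20, -0.24 and -0.37 in knockouts and 0.39, -0.16, -0.26 and -0.63 in controls, a difference of 0.05 ± 0.28. For both type VI genes the knockouts lay inside the control range. Col14a1 read 0.39, 0.13, -0.54 and 0.17 in knockouts and -0.16, -0.08, -0.27 and -0.17 in controls, with 3 knockouts above and 1 below all controls. Col22a1 read -0.25, 0.50, 0.42 and -0.58 in knockouts and 0.93, -0.58, 0.00 and 1.13 in controls, and Col9a3 read 0.22, 0.01, 0.07 and -0.04 against -0.22, 0.00, -0.01 and -0.11. The groups of both overlapped.

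Exact two-sided permutation tests were run for the 7 chains of types I, III, V, IV and VI that were followed at both times. At 2 weeks they gave p from 0.0857 (Col3a1 and Col6a1) to 0.371 (Col4a2) and a larger p for Col4a1, where 35 splits allow no p under 0.0286. At 10 weeks the exact tests gave p from 0.0286 (Col3a1), the smallest that 70 splits allow and a restatement of groups that do not overlap, to 0.857 (Col4a1).

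The class means at 10 weeks were 0.06 ± 0.08 in knockouts against -0.08 ± 0.07 in controls for fibrillar collagens (SD, n = 4 each). They were -0.05 ± 0.34 against -0.23 ± 0.17 for type IV genes and 0.05 ± 0.12 against 0.00 ± 0.13 for the other collagens. The fibrillar difference of 0.14 exceeded the SD of either group, although 1 knockout array (-0.04) lay inside the control range. Those of the other classes (0.18 and 0.05) did not exceed the larger SD. The type IV difference was 0.04 without knockout replicate 4, 0.31 without knockout replicate 2 and 0.10 without control replicate 2. That of the other collagens ran from -0.01 without knockout replicate 1 to 0.10 without control replicate 3, and was 0.01 and 0.02 without control replicates 2 and 4.

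Whether the knockout effect differed between 10 and 2 weeks was tested as an interaction. No gene of any kind was called (0% of all genes), and 1 collagen, Col8a1, had an unadjusted p under 0.05, against 6.81% of all genes. The Col8a1 effect at 10 weeks minus that at 2 weeks was -0.98 ± 0.32 (limma, adjusted p = 0.575). The median over the collagens was -0.06 with 21 of 44 above 0, and without knockout replicate 3 at 2 weeks it was 0.12 with 29 above 0. It was 0.03 with 25 above 0 without control replicate 4 at 2 weeks, and -0.12 with 17 above 0 without knockout replicate 1 at 2 weeks. With each array centred on its median it was -0.05 with 21 above 0.

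Time after tamoxifen was compared within each genotype, with the same arrays as the comparisons above. In controls no gene was called (0% of all genes). At an unadjusted p under 0.05 there were 2 collagens, both lower at 10 weeks, against 4.17% of all genes. Col9a3 differed by -1.01 ± 0.38 and Col4a2 by -0.30 ± 0.14. The median collagen difference in controls was -0.10, with 12 of 44 above 0. With each array centred on its median these values were -0.10 and 12. In knockouts no collagen was called, against 0.389% of all genes (76 genes). At an unadjusted p under 0.05 there were 9 collagens, against 11.2% of all genes: Col9a1 lay higher at 10 weeks, and Col8a2, Col14a1, Col8a1, Col4a2, Col3a1, Col28a1, Col15a1 and Col6a1 lay lower. Col8a2 had the largest of these differences, -1.72 ± 0.55 (limma, adjusted p = 0.253). Without knockout replicate 3 at 2 weeks, 1 collagen was under that limit in place of 9, and the Col8a2 difference was -0.95. The count was 5 without control replicate 2 at 2 weeks (against 10.97% of all genes) or control replicate 4 at 10 weeks (against 10.74%). It was also 5 without knockout replicate 3 at 10 weeks.

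The probes of a collagen gene often differed from each other. At 2 weeks no collagen probe was called by limma over all probes, against 0.0194% of probes (8 probes). At an unadjusted p under 0.05 there were 17 of 89 collagen probes (19.1%), from 15 genes, against 6.68% of all probes; 14 lay higher and 3 lower in knockouts. Without knockout replicate 3 the count was 7, and the share of all probes is not given for that setting. All knockouts lay above all controls on 3 collagen probes, against 4.67% of probes: both RefSeq probes of Col8a1 and 1 probe of Col2a1, A_51_P317141, with a difference of 0.69 ± 0.21. All knockouts lay below on 1, against 4.23% of probes, which was the Col27a1 probe A_52_P628870 at -0.37 ± 0.11. At 10 weeks no collagen probe was called, against 0.597% of probes. There 1 probe had an unadjusted p under 0.05 (1.12%, against 8.59% of all probes), the Col1a1 probe A_52_P658611 at 0.46.

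Of the 29 collagen genes with more than 1 probe, 18 had probes with differences of opposite sign at 2 weeks and 16 at 10 weeks. The same counts are not given for other genes, so whether collagens differ from them in this was not tested. The median distance between the lowest and the highest probe of a gene at 2 weeks was 0.57. For Col3a1 the RefSeq probes gave 0.96 and 0.79 and the cDNA clone probe gave -0.01. For Col1a1, whose probes all carry RefSeq accessions, they gave 0.40, 0.78 and -0.07. The Col1a1 probe near 0 at 2 weeks was the one with the unadjusted p under 0.05 at 10 weeks. The probes of Col14a1 gave 1.15 and -0.11, those of Col16a1 0.94 and -0.25, and those of Col6a3 0.71, -0.18 and -0.17. The probes of Col4a2 (0.21 and 0.19) and of Col15a1 (0.76 and 0.71) lay close together.

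The 74 collagen probes with a RefSeq accession had a median difference of 0.10 at 2 weeks, with 13 higher and 2 lower at an unadjusted p under 0.05. The 15 probes annotated to cDNA clones had a median of -0.10, with 1 higher and 1 lower. Probes of 1 gene share a target, so these are counts and not replicates. Of all mouse probes 6.68% were under that limit. The shares of all RefSeq and of all cDNA clone probes are not given, so the kinds were not tested against each other.

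**Figure D4:**
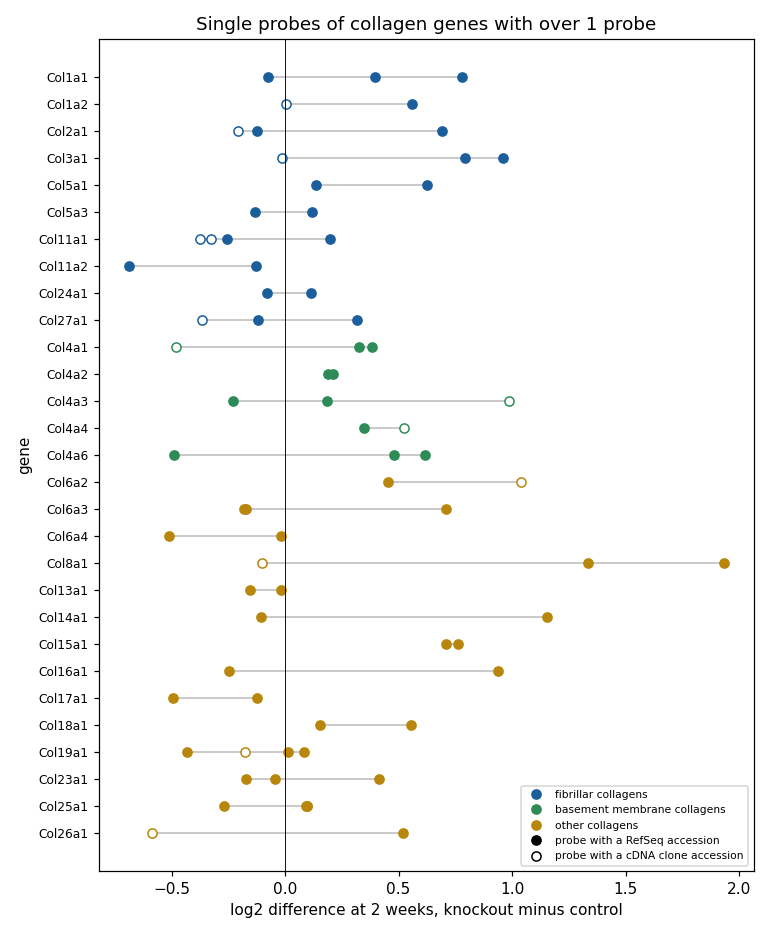
Differences at 2 weeks (log2, knockout minus control, x axis) of the single probes of the 29 collagen genes with more than 1 probe (y axis). Filled points are probes with a RefSeq accession, open points are probes with a cDNA clone accession, colours give the class and grey lines join the probes of a gene. The 2 filled points of Col8a1 lie at 1.33 and 1.93 and its open point at -0.10.

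Over the 15 arrays, 64 pairs of probes of the same collagen gene had a median Pearson correlation of -0.03, with a range from -0.60 to 0.87. The correlation was below 0 for 34 pairs and over 0.5 for 9. By permutation tests, adjusted over the 64 pairs, 7 pairs had an adjusted p under 0.05 by Pearson, 4 by Spearman and 2 by both. The RefSeq probes of Col4a1 formed 1 of those 2 pairs, with r = 0.87 and rho = 0.83 (permutation tests, adjusted p = 0.0019 and 0.0066), and r = 0.77 without the 2 arrays farthest from the median. A Col25a1 pair formed the other, with r = 0.82, rho = 0.92 and r = 0.91 without 2 arrays (permutation tests, adjusted p = 0.0058 and 0.00064). Pairs of Col3a1 (0.83), Col1a1 (0.81), Col8a1 (0.78) and Col4a2 (0.73) also had high r, which fell by the same check to 0.45, 0.59, 0.53 and 0.39. In each of these 4 genes knockout replicate 3 at 2 weeks was among the 2 arrays left out. The arrays belong to 4 groups, and with the group means subtracted the median r was 0.02. Correlations between probes of other genes are not given for comparison.

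Genes that make, process or bind collagen were read beside the collagens, and none of them was called at 2 or 10 weeks. At 2 weeks 11 of 20 genes of collagen synthesis and folding lay above 0 (median 0.05), and 1, the prolyl hydroxylase partner Crtap (0.26 ± 0.12), had an unadjusted p under 0.05. Among 12 genes of trimming and crosslinking 8 lay above 0 (median 0.08), with Loxl1, a lysyl oxidase, at 1.02 ± 0.28 and the procollagen protease enhancers Pcolce2 and Pcolce at 0.70 ± 0.20 and 0.44 ± 0.19. Of 12 fibril binding proteins 11 lay above 0 (median 0.41), led by lumican, Lum, at 1.03 ± 0.27 (limma, adjusted p = 0.441), asporin, Aspn, at 1.37 ± 0.48 and fibronectin, Fn1, at 0.71 ± 0.26. These shares stand beside 7.25% of all genes at an unadjusted p under 0.05, which was met by 1 of 20, 3 of 12 and 3 of 12 genes.

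The means of these lists on each array overlapped between the groups. For synthesis and folding the knockouts read -0.14, 0.28 and 0.14, and the controls -0.07 to 0.13. For trimming and crosslinking they read -0.04, -0.01 and 0.57, and the controls -0.21 to 0.08, so that replicate 3 alone lay above the controls. For fibril binding proteins they read 0.23, 0.44 and 0.79, and the controls -0.46 to 0.43. The list medians without knockout replicate 3 were 0.03, 0.01 and 0.22, with 10 of 20, 6 of 12 and 11 of 12 genes above 0. Loxl1 was then at 0.78, Lum at 0.78, Aspn at 1.07 and Fn1 at 0.83.

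Partners of type IV collagen in the basement membrane lay above 0 in 8 of 11 cases (median 0.16), with the laminin chain Lamc1 at 0.39 ± 0.12 and nidogen 1, Nid1, at 0.53 ± 0.19. In 10 genes of collagen degradation 5 lay above 0 (median -0.03). Their 3 smallest p belonged to the gelatinase Mmp2 at 1.11 ± 0.24 (limma, adjusted p = 0.343), its activator Mmp14 at 0.85 ± 0.20 and the inhibitor Timp2 at 0.54 ± 0.23. Of 10 collagen receptors 5 lay above 0 (median 0.16), with the integrin chain Itga11 at 1.30 ± 0.46 and the platelet receptor Gp6 at -0.87 ± 0.38. In the TGF-beta pathway, which drives collagen transcription in fibroblasts, 11 of 17 genes lay above 0 (median 0.15). Ltbp2 differed by 1.80 ± 0.58, Ccn2 by 0.51 ± 0.18 and Tgfb1 by 0.33 ± 0.14. The medians of these 4 lists without knockout replicate 3 were 0.14 for basement membrane partners, 0.06 for degradation, 0.04 for receptors and 0.13 for TGF-beta. Mmp2 was then at 0.90, Mmp14 at 0.91, Timp2 at 0.29, Itga11 at 0.80 and Ltbp2 at 1.26.

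At 10 weeks the same lists had medians between -0.03 and 0.13. The collagen-binding receptor kinase Ddr1 differed by -0.46 ± 0.13 (limma, adjusted p = 0.160), Mmp14 by 0.51 ± 0.19, decorin, Dcn, by 0.47 ± 0.20 and tenascin X, Tnxb, by 1.02 ± 0.32 (limma, adjusted p = 0.232).

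The means of fibroblast, endothelial and red blood cell markers lay apart between the genotypes at 2 weeks. The mean of 13 fibroblast markers lay between 0.31 and 0.74 in the knockouts, above the control range of -0.23 to 0.12, and it too was highest in knockout replicate 3. Of the 13, 11 lay above 0 (median 0.58), and for 5 all knockouts lay above all controls, against 4.26% of all genes. Mmp2, Dpep1 (0.79 ± 0.19) and Fbln1 (1.30 ± 0.32) had the smallest p of the list. The median was 0.51, with 10 of 13 above 0, without knockout replicate 3. No marker was called, and Mmp2, Lum, Dcn, Postn and Ddr2 also belong to the lists above. At 10 weeks the range of the marker mean, -0.09 to 0.27 in knockouts, overlapped that of the controls, -0.45 to -0.05, and the smallest adjusted p was 0.0781 (limma, Dpep1, 0.77 ± 0.18). The mean of 10 endothelial markers at 2 weeks was 0.16 to 0.23 in knockouts, above the -0.07 to 0.08 of controls. That of 3 red blood cell markers was -0.69 to -0.40 in knockouts, under the -0.32 to 0.16 of controls. Means of smooth muscle, leukocyte, epicardial, cartilage, nerve, adipocyte, skeletal muscle, atrial and ventricular muscle markers overlapped between the groups at 2 weeks. Since each probe was centred, no marker can be read as present or absent, and the part of these cells in the collagen values was not tested.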

How the data were processed

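RNA of heart ventricles from 15 mice was measured on 2-colour Agilent arrays. The deposited values are log ratios (taken as log2) that the authors had scaled and centred per probe. The dyes are those named in the labels. The sources used here do not give the log base, background correction or scaling. The table held 41267 probes with no missing value. Of these, 93 were control spots, 32664 had 1 gene symbol, 45 several and 8465 none, and 32524 were found in RefSeq by their Entrez ID. All 15 array columns were used, and 0 others were set aside. Array medians ran from -0.02 to 0.03. The number of arrays limits the precision.

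Probes with 1 symbol were averaged per gene. All 19532 genes, and separately 41174 mouse probes, were fitted with limma 3.58.1 in R 4.3.3 (lmFit, eBayes) as 4 group means. The fit had 11 residual degrees of freedom, to which moderation added 2.07 for genes. P-values are two-sided and adjusted by Benjamini-Hochberg over all genes or probes of a contrast, with calls under 0.05. Exact permutation tests of single genes used all 35 or 70 splits of the arrays. Probe pairs were tested with 100000 permutations. In a simulation each gene was drawn independently from a normal distribution with its own spread within the groups, and 200 genes were changed. There 2-fold changes were recovered for 50.5% at 2 weeks (8 false among 109 calls) and 42% at 10 weeks (6 of 90). For 4-fold changes the rates were 88.5% (14 of 191) and 85% (9 of 179). The simulation held no outlying array and no correlation between genes, so the rates for collagens on these arrays can differ.

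The collagens, the other lists and the tests were chosen with earlier results of these data known. Values on every array are given for Col1a1, Col1a2, Col3a1, Col5a1, Col4a1, Col4a2, Col6a1, and for the collagens with the 6 smallest p between genotypes at each time or the 3 smallest p in the other contrasts. Up to 3 members of each other list with the smallest p per time are named. Some genes of these lists were not analysed here and are not reported. Promoter windows come from RefSeq, and protein sequences were not used here. Arrays with the same replicate number in different groups were not treated as pairs in the main fit. Over 7 such pairs the correlation of deviations from the group means ran from -0.03 to 0.06, and 0 pairs exceeded 0.1. That check cannot exclude a litter or slide shared between arrays. Alternatives covered array scaling, the choice of probe, array weights, a replicate block, the arrays entered and leaving out each array. No filter on dim probes, background correction or slide block was tried, since intensities and slides were not used here.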

Additional observations from a re-analysis of the deposited data

Results flagged for a closer look

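In 17 collagen genes, the means of the 3 classes and the mean of all collagens, the groups of 4 arrays were searched for 1 array far from the others, by a rule that chance meets in about 5% of groups. Of 63 groups, 5 had such an array. Col4a2 in control replicate 2 at 10 weeks read -0.38, while the other controls read -0.13 to -0.10. Col8a2 in control replicate 3 at 10 weeks read 0.37, and the others -0.57 to -0.49. Col4a4 in knockout replicate 2 at 10 weeks read -0.66, and the others 0.32 to 0.45. Col19a1 in control replicate 3 at 2 weeks read 0.58, and the others -0.08 to 0.01. The mean of the collagen genes in knockout replicate 1 at 10 weeks was 0.14, and in the others -0.01 to 0.02. The group of 3 knockouts at 2 weeks was too small for this search.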

How the results depend on the processing

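No collagen gene was called under any alternative run. Nor was any collagen probe under those run for probes (quantile normalisation, the replicate block and leaving out each array). The lowest adjusted p (limma) of a followed collagen was 0.139, for Col3a1 at 2 weeks without knockout replicate 1. The median collagen difference ran from -0.01 to 0.21 at 2 weeks and from 0.03 to 0.11 at 10 weeks when each array was left out in turn. With the replicate number as a block, 0 collagens were called at 2 weeks and the median was 0.06. The count at an unadjusted p under 0.05 was then 3 in place of 8, against 8.20% of all genes in place of 7.25%. For probes it was 14 in place of 17. With the arrays of 2 weeks alone the count for genes was also 3, against 6.32% of all genes. The count of collagens with all knockouts above all controls at 2 weeks was 1 in the report. It was 6 without control replicate 1 (13.6%, against 6.56% of all genes), 9 without knockout replicate 1 (20.5%, against 7.93%), 3 without knockout replicate 2 (6.82%, against 8.03%), 2 without control replicate 2 (4.55%, against 6.36%), and 2 with either other scaling or with the most variable probe. For the difference between the effects the count at an unadjusted p under 0.05 was 1. It was 4 without knockout replicate 1 or 2 at 2 weeks, against 6.86% and 6.98% of all genes. It was 3 without control replicate 1 at 2 weeks, against 7.18%. For time in controls it was 2. It was 0 without control replicate 3 or 4 at 2 weeks, against 4.52% and 4.50% of all genes. It was 1 without control replicate 2 or knockout replicate 2 at 2 weeks, or any control at 10 weeks. The share of all genes was then 3.83% to 4.49%. It was also 1 without knockout replicate 1, 2 or 4 at 10 weeks. For probes at 2 weeks it was 11 without control replicate 4. The share of all probes is not given for the alternative settings. Signs turned for 2 genes with small differences. Col4a1 at 2 weeks was -0.48 with its most variable probe and from -0.14 (without knockout replicate 3) to 0.36 (without knockout replicate 2) when single arrays were left out. At 10 weeks it was 0.13 with the median of its probes, 0.033 without knockout replicate 2, and between -0.17 and 0.094 (without control replicate 3) over all arrays left out. Col6a1 at 10 weeks lay between -0.087 (without control replicate 1) and 0.24, and was -0.067 without knockout replicate 1. The cause was not tested. Collagens near background cannot be set apart, since signal over background was not used.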
